A study of Mus musculus with 21 samples.

Results

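The IL-6 family cytokine pathway was followed through 9 of its genes in mouse embryonic fibroblasts (MEFs): the ligands Il6, Lif, Il11 and Clcf1, the receptor chains Il6st, Osmr and Lifr, the transcription factor Stat3 and the inhibitor Socs3. The genes were chosen by symbol, for their known place in the pathway, from the 24454 genes of the expression table. All 9 passed the filter on low counts, which left 13719 genes for testing. Il6 passed it through the Trf1f/f libraries described below, and the other libraries held 1 to 9 counts of it. RNA was sequenced from 21 libraries in 7 groups of 3, collected 96 hours after infection of the cells with an adenovirus that expressed either GFP (+GFP) or Cre recombinase (+Cre).

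In the first 3 groups the MEFs were Rtel1f/f, with floxed alleles of the DNA helicase RTEL1, and received GFP, Cre, or GFP together with 10 µM TMPyP4 for the last 48 hours. TMPyP4 is a porphyrin that binds and stabilises G-quadruplexes, 4-stranded folds of guanine-rich DNA. Another pair of groups, +GFP and +Cre, were Rtel1f/f MEFs transduced with a retroviral vector for RTEL1 C1252A/C1255A, a mutant deficient in unwinding telomere loops (RTEL1 CA below). The floxed alleles were intact in the +GFP cells of this pair, so that RTEL1 CA +GFP cells held both the floxed alleles and the mutant. In the last pair, +GFP and +Cre, the MEFs were Trf1f/f, with floxed alleles of the telomere-binding protein TRF1 (gene Terf1). The labels call the 3 libraries of a group biological replicates without naming separate embryos or cultures, and p-values measure the spread between these libraries, which may be partly technical. Each floxed genotype is also a different cell line, so that line and genotype cannot be told apart.

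Cytokines of the IL-6 family act through receptor complexes that share the signal-transducing chain gp130, encoded by Il6st. A further chain, such as the LIF receptor (Lifr) or the oncostatin M receptor (Osmr), joins gp130 in many of these complexes. Janus kinases bound to the chains then phosphorylate STAT3, which enters the nucleus and switches on target genes. One of these targets is Socs3, whose product binds gp130 and shuts the signal down. Fibroblasts are known both to release these cytokines and to respond to them.

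The libraries held from 32069888 to 51938593 counts, and a gene was called where the quasi-likelihood test of edgeR, after Benjamini-Hochberg adjustment over every tested gene, gave a p of 0.01 or less. Levels are given as CPM, counts scaled to the normalised size of each library, for replicates 1, 2 and 3 in that order. The targeted genes followed the labels: Terf1 had a mean of 29.3 ± 1.21 CPM (SD, n = 3) in Trf1f/f +GFP and 0.0608 ± 0.0434 in +Cre cells, and Rtel1 had 61.8 ± 3.83 in Rtel1f/f +GFP and 29.5 ± 2.56 in +Cre cells. Reads of the vector reach the Rtel1 count in RTEL1 CA cells, whose +GFP libraries had 332 ± 4.8 CPM. Fibroblast collagen genes were abundant in every group, whereas the fibroblast surface marker Thy1 had means between 0.0426 and 0.252 CPM in the 5 groups of Rtel1f/f origin. Summed markers of leukocytes, endothelium and epithelium reached at most 12.3, 4.45 and 7.96 CPM in any library.

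The 3 Rtel1f/f +GFP libraries stood apart from the other libraries of Rtel1f/f origin. On the first principal component of these 15 libraries, which took 52.4% of the variance, their lowest score was 55.7 and the highest score of any other library was 26.4. RTEL1 CA +GFP cells, in which no allele had been deleted and no drug added, lay with the deleted and the drug-treated cells. For those of the 9 genes that were called after Rtel1 deletion or with TMPyP4, and for each list of other genes, values with RTEL1 CA +GFP as the control are therefore given as well. The RTEL1 CA +GFP control also carries the vector and the mutant. Its contrasts with Rtel1f/f +Cre and with TMPyP4 therefore combine these, and any difference between cultures, with the deletion or the drug. The comparisons of Rtel1 deletion and of TMPyP4 share their 3 control libraries and are not independent of each other.

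Deletion of Rtel1 went with lower levels of Osmr, Lifr, Il6st, Stat3 and Socs3, and with a higher level of Lif. Of the 9 genes, 5 fell and 1 rose, against 21% and 22.0% of all tested genes. The same 5 genes fell with TMPyP4 and 0 rose, against 13.4% and 16.6% of all genes. In RTEL1 CA cells, Cre changed 0 of the 9, against 1.09% of all genes changed in either direction, and in Trf1f/f cells it raised 1, Il6, against 2.65% of all genes. Before any deletion or drug, however, RTEL1 CA +GFP cells already had lower levels of those 5 genes than Rtel1f/f +GFP cells, and higher levels of 2, Lif and Clcf1, against 22.1% and 22.6% of all genes. With RTEL1 CA +GFP as the control, only Osmr was called in each contrast. It was lower in Rtel1f/f +Cre cells (against 3.95% of all genes lower) and higher in TMPyP4-treated cells (against 9.94% higher). These contrasts were fitted without pairing libraries by replicate number, and such pairing was not checked for them.

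**Figure D1:**
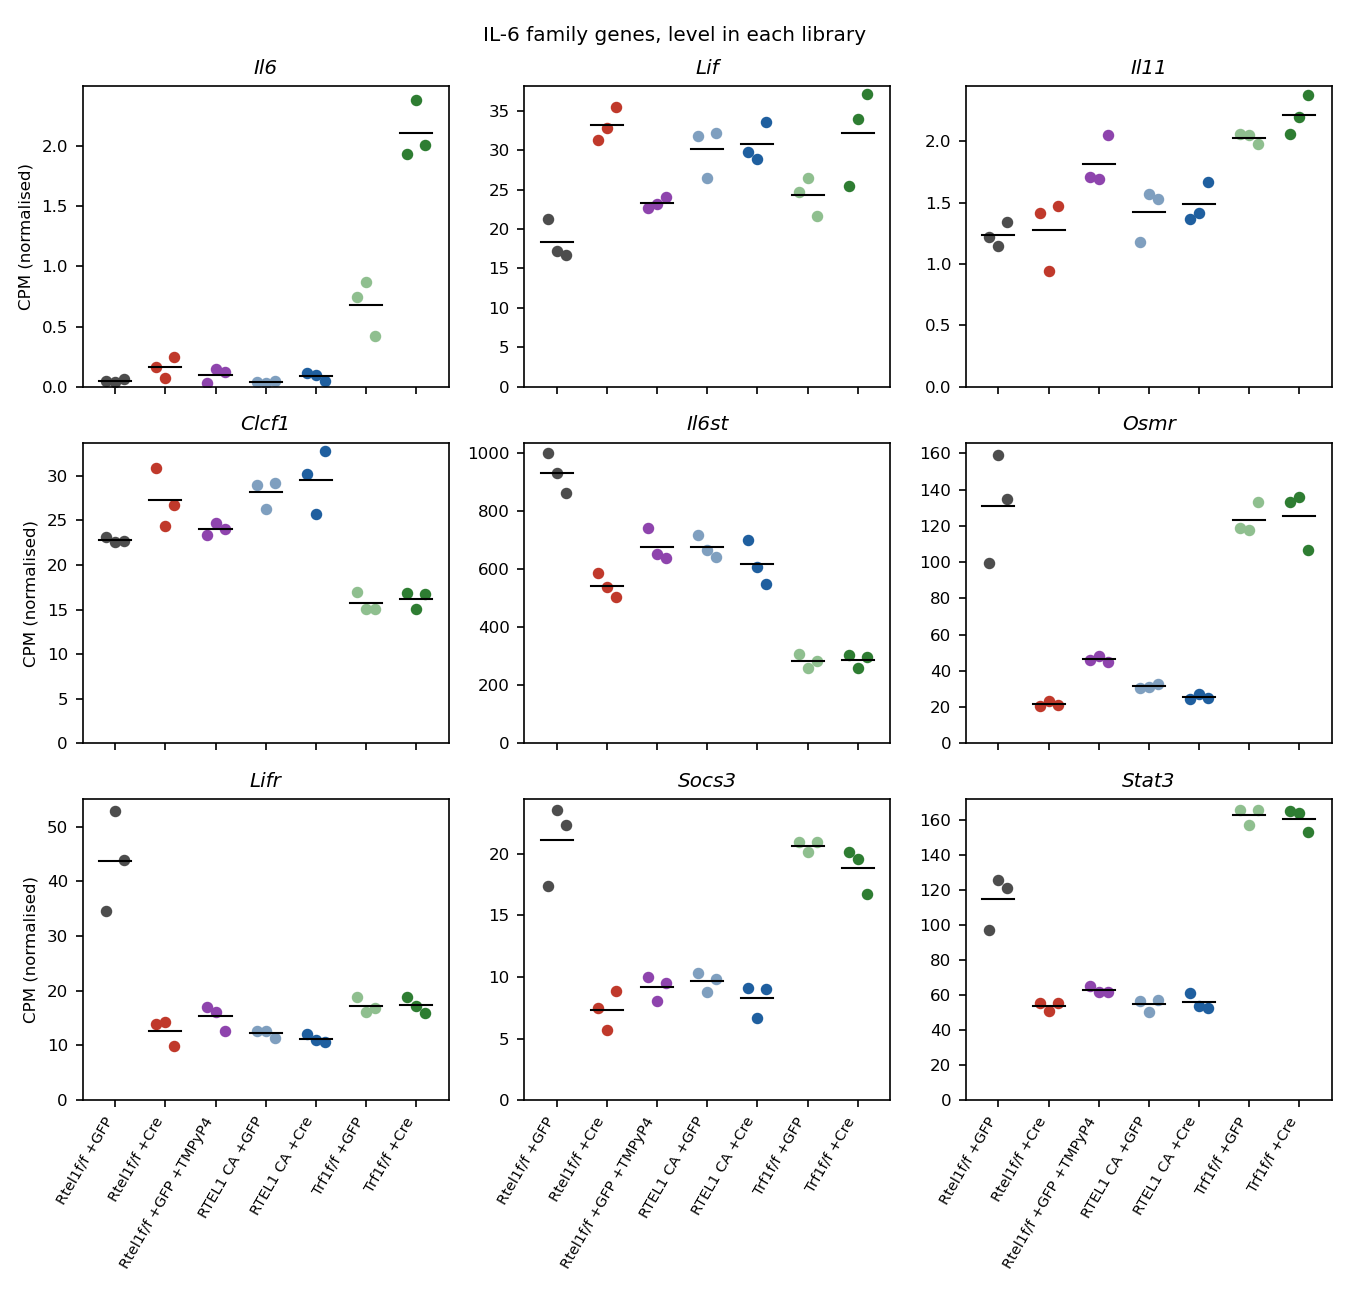
Level of the 9 genes in each of the 21 libraries, in normalised CPM on linear axes that start at 0, with 1 point per library and a bar at the mean of each group. For Osmr, Lifr, Socs3, Stat3 and Il6st, the 3 Rtel1f/f +GFP points lie above all points of the other 4 groups of Rtel1f/f origin.

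The levels of different genes were compared per transcript length, in TPM. Il6st was the most abundant of the 9 in Rtel1f/f +GFP cells, with 353 ± 29.4 TPM (SD, n = 3). Osmr had 56.3 ± 14.2 TPM and Stat3 had 52.7 ± 7.9 TPM. The ligand Clcf1 had 26.9 ± 0.728 TPM and Lif 9.45 ± 1.25 TPM, near the 10.4 ± 2.26 TPM of Lifr. Il11 had 1.46 ± 0.0874 TPM and Il6 0.103 ± 0.0231 TPM. Il6st and Osmr were thus more abundant than any of the 4 ligands, Lifr was less abundant than Clcf1, and Il6 was close to absent. In Trf1f/f +GFP cells Il6st had 106 ± 12.2 TPM, Stat3 73.7 ± 4.66 TPM and Il6 1.37 ± 0.45 TPM.

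Il6, the founding cytokine of the family, was measurable mainly in the Trf1f/f line. Its counts were 2, 2 and 3 in Rtel1f/f +GFP libraries, 7, 3 and 9 in +Cre libraries and 1, 6 and 5 with TMPyP4. RTEL1 CA libraries had 2, 1 and 2 counts with GFP and 6, 4 and 2 with Cre. Summed counts gave a ratio of 3.25 for Rtel1f/f +Cre over +GFP (exact 95% interval 1.31 to 9.15, adjusted for depth and for counting error only). The edgeR test gave an adjusted p of 0.018, above the threshold. Il6 was called without Rtel1f/f +Cre replicate 2, the library of that group with the fewest counts (log2 difference 1.97, adjusted p = 0.00675, edgeR). Without +Cre replicate 3 the log2 difference was 1.26, without a call. The ratio was 2.14 (0.777 to 6.42) with TMPyP4 and 2.27 (0.744 to 8.22) for RTEL1 CA +Cre over +GFP. Neither of these intervals leaves out 1, so that no change was detectable at this depth. In Trf1f/f cells the counts were 32, 38 and 17 with GFP and 88, 104 and 75 with Cre, or 0.742, 0.873 and 0.422 against 1.93, 2.38 and 2.01 CPM. The groups did not overlap, and Il6 rose by 1.62 ± 0.261 on the log2 scale (SE, adjusted p = 5.0e-04, edgeR's quasi-likelihood test). Trf1f/f +GFP cells had 14.1 times the Il6 of Rtel1f/f +GFP cells by summed counts (6.54 to 36).

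Promoter sequences of the 9 genes were searched in RefSeq windows of GRCm38.p6, which run from 250 bases before to 50 bases after a start site and were found for 8 of the 9 genes. Motifs were read on both strands: TTCNNNGAA for STAT factors, GGGANTTTCC for NF-kB, TGANTCA for AP-1, and a G-quadruplex pattern of 4 runs of at least 3 G with loops of 1 to 7 bases. The first 3 were held by 8.3%, 0.411% and 7.81% of all 32851 windows and the G-quadruplex pattern by 18.6%. The NF-kB match of Il6, a cytokine gene known to answer to NF-kB, is shown because NF-kB feedback genes are described further on. It lies 44 to 35 bases before the start site, in chr5:30013030-30013113 on the + strand, upstream of the annotated gene, with the match in capitals.
Il6: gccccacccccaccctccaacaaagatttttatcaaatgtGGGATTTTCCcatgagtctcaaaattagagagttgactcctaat
The Il6 window also held an AP-1 match and a G-quadruplex pattern on the opposite strand, as did those of Lif and of 1 of the 2 start sites of Il11.

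Lif, the cytokine that keeps embryonic stem cells undifferentiated, was the 1 ligand of the 4 called after Rtel1 deletion. It had 21.2, 17.2 and 16.7 CPM in Rtel1f/f +GFP, 31.3, 32.8 and 35.4 CPM in +Cre and 22.7, 23.1 and 24.0 CPM in TMPyP4-treated cells. All 3 +Cre libraries lay above both other groups. Lif rose by 0.85 ± 0.127 on the log2 scale after deletion (SE, 1.8-fold, adjusted p = 1.9e-05, edgeR's quasi-likelihood test). With TMPyP4 the difference was 0.34 ± 0.127, in 3 of 3 libraries above all controls, and did not pass (adjusted p = 0.0368, same edgeR test). Direct comparison of +Cre with TMPyP4 gave a log2 difference of 0.51 ± 0.126 (adjusted p = 0.00613, same edgeR test), which lost its call whichever of the 6 libraries was left out (adjusted p between 0.0103 and 0.0258).

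RTEL1 CA cells had 31.8, 26.4 and 32.2 CPM of Lif in +GFP and 29.8, 28.9 and 33.6 CPM in +Cre libraries. These groups overlapped each other and the Rtel1f/f +Cre libraries, and lay above every Rtel1f/f +GFP library. RTEL1 CA +GFP exceeded Rtel1f/f +GFP by 0.71 ± 0.127 (log2, adjusted p = 1.1e-04, edgeR's test), and with RTEL1 CA +GFP as the control the difference of Rtel1f/f +Cre was 0.14 (adjusted p = 0.59). In Trf1f/f cells Lif had 24.7, 26.5 and 21.7 CPM in +GFP and 25.5, 34.0 and 37.1 CPM in +Cre libraries. These groups overlapped, and the log2 difference of 0.41 (95% interval 0.14 to 0.67) did not pass (adjusted p = 0.0645, edgeR's test). It passed without Trf1f/f +Cre replicate 1 (0.54, adjusted p = 0.00807), and without +Cre replicate 3 it was 0.29, without a call. Trf1f/f +GFP exceeded Rtel1f/f +GFP by 0.40 on the log2 scale (adjusted p = 0.00968), a call lost without 4 of the 6 libraries taken singly: Rtel1f/f +GFP replicates 2 and 3 and Trf1f/f +GFP replicates 1 and 2 (log2 differences from 0.32 to 0.39).

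The Lif promoter is shown for its G-quadruplex pattern, given that TMPyP4 binds such structures. It lies on the opposite strand, and so appears as runs of C, 172 to 152 bases before the start site in chr11:4257366-4257446, upstream of the annotated gene.
Lif: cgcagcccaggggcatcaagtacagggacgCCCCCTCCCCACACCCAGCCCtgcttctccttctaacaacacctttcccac
The match describes these letters and not a folded structure or a site of action.

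Il11, a cytokine linked to fibrosis, was low. Its levels were 1.22, 1.15 and 1.34 CPM in Rtel1f/f +GFP, 1.42, 0.943 and 1.47 CPM in +Cre and 1.71, 1.69 and 2.05 CPM in TMPyP4-treated libraries. The TMPyP4 group lay wholly above both others. Its log2 difference from +GFP was 0.55 ± 0.162 (adjusted p = 0.0103, edgeR's quasi-likelihood test), just outside the threshold. After Rtel1 deletion the difference was 0.04, with a 95% interval from -0.30 to 0.39. Trf1f/f +GFP cells had 2.06, 2.05 and 1.98 CPM, 0.71 ± 0.16 above Rtel1f/f +GFP on the log2 scale (adjusted p = 7.5e-04, edgeR's test), and Cre in that line gave 0.12 (-0.20 to 0.45).

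Clcf1, a ligand that signals through the CNTF receptor, had 23.1, 22.6 and 22.7 CPM in Rtel1f/f +GFP and 30.8, 24.4 and 26.7 CPM in +Cre libraries. The groups did not overlap, but the log2 difference of 0.26 ± 0.0931 did not pass (adjusted p = 0.0249, edgeR's quasi-likelihood test). DESeq2 called it (0.28, adjusted p = 0.00734), as did edgeR without Rtel1f/f +Cre replicate 2 (0.32, adjusted p = 0.00983). Without +Cre replicate 1, edgeR gave 0.16, without a call. With TMPyP4 the difference was 0.07 (95% interval -0.12 to 0.27), and in RTEL1 CA and Trf1f/f cells Cre gave 0.07 (-0.12 to 0.27) and 0.05 (-0.15 to 0.25). RTEL1 CA +GFP lay 0.30 above Rtel1f/f +GFP (adjusted p = 0.00958, edgeR's test), a call lost when any of 5 of the 6 libraries was left out, RTEL1 CA +GFP replicate 2 being the other (adjusted p between 0.0132 and 0.0206). Trf1f/f +GFP lay lower, at 17.0, 15.1 and 15.1 CPM, a log2 difference of -0.54 (adjusted p = 6.6e-05).

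Il6st, the gp130 chain shared across the family, had 1000, 934 and 865 CPM in Rtel1f/f +GFP libraries, 587, 540 and 505 CPM in +Cre libraries and 742, 653 and 640 CPM with TMPyP4. All treated libraries lay below all controls, and all +Cre libraries below all TMPyP4 libraries. The log2 change was -0.78 ± 0.0977 after deletion (SE, 1.72-fold lower, adjusted p = 2.8e-06) and -0.46 ± 0.0973 with TMPyP4 (1.38-fold lower, adjusted p = 9.7e-04) by edgeR's quasi-likelihood test. Between +Cre and TMPyP4 the difference was -0.32 ± 0.0972, which did not pass (adjusted p = 0.0218, same edgeR test) but did with the replicate number as a block (adjusted p = 4.2e-04), and replicate numbers pair the libraries of these groups. RTEL1 CA libraries had 718, 667 and 643 CPM in +GFP and 702, 607 and 550 CPM in +Cre libraries. They overlapped each other, and those with GFP lay within the range of TMPyP4 libraries. Against RTEL1 CA +GFP, Rtel1f/f +Cre differed by -0.31 (adjusted p = 0.0402) and TMPyP4 by 0.01 (adjusted p = 0.983), by edgeR without a replicate block. Every Rtel1f/f +Cre library lay below every RTEL1 CA +GFP library, although the difference did not pass.

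Trf1f/f cells had the lowest Il6st of all groups, with 308, 260 and 284 CPM under GFP and 306, 261 and 298 CPM under Cre. That line lay 3.29-fold below Rtel1f/f +GFP (log2 -1.72 ± 0.0998, adjusted p = 4.3e-11, edgeR's test), and Cre left a difference of 0.02 (95% interval -0.18 to 0.23).

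Osmr, the oncostatin M receptor chain, had the largest change of the 9 genes after Rtel1 deletion. Its levels were 99.4, 159 and 135 CPM in Rtel1f/f +GFP, 20.4, 23.5 and 21.2 CPM in +Cre and 45.8, 48.3 and 45.2 CPM in TMPyP4-treated libraries. The 3 groups did not overlap, and the TMPyP4 group lay between the other two. Osmr fell by 2.59 ± 0.132 on the log2 scale after deletion (SE, 6.04-fold, adjusted p = 5.4e-11) and by 1.50 ± 0.126 with TMPyP4 (2.83-fold, adjusted p = 1.1e-07) by edgeR's quasi-likelihood test. By absolute log2 change it ranked 396 of the 13719 genes after deletion and 800 with TMPyP4. Rtel1f/f +Cre lay below TMPyP4 (log2 difference -1.09 ± 0.127, adjusted p = 5.6e-06, same edgeR test).

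RTEL1 CA libraries had 30.7, 31.0 and 33.0 CPM of Osmr in +GFP and 24.5, 27.3 and 25.1 CPM in +Cre libraries. The groups did not overlap each other or any other group of Rtel1f/f origin. RTEL1 CA +GFP was 4.15-fold below Rtel1f/f +GFP (log2 -2.05, adjusted p = 7.9e-10), while Cre in RTEL1 CA cells gave -0.30 (95% interval -0.57 to -0.04), which did not pass (adjusted p = 0.255, edgeR's test). Against RTEL1 CA +GFP, Rtel1f/f +Cre was lower (log2 difference -0.54, adjusted p = 0.00696) and TMPyP4 higher by 0.55 (adjusted p = 0.00292). The sign for TMPyP4-treated libraries thus turned with the control, and that for Rtel1f/f +Cre libraries did not, though the 2 controls also differ in the vector and the mutant. Trf1f/f libraries had 119, 118 and 133 CPM in +GFP and 133, 136 and 107 CPM in +Cre libraries, both overlapping Rtel1f/f +GFP, and Cre gave 0.03 (-0.23 to 0.29).

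Lifr, the LIF receptor chain, had 34.6, 52.8 and 43.9 CPM in Rtel1f/f +GFP, 13.9, 14.2 and 9.85 CPM in +Cre and 17.1, 16.1 and 12.7 CPM in TMPyP4-treated libraries. Controls lay above both treated groups, which overlapped. Lifr fell by 1.79 ± 0.154 on the log2 scale after deletion (SE, 3.45-fold, adjusted p = 3.6e-08) and by 1.52 ± 0.153 with TMPyP4 (2.86-fold, adjusted p = 7.7e-07) by edgeR's quasi-likelihood test. The receptor chain of Lif thus fell after deletion in the same libraries in which Lif rose. RTEL1 CA libraries had 12.7, 12.7 and 11.3 CPM in +GFP and 12.1, 11 and 10.6 CPM in +Cre libraries, in the range of the deleted cells. With that control, Rtel1f/f +Cre differed by 0.05 (adjusted p = 0.901) and TMPyP4 by 0.32 (adjusted p = 0.13), both opposite in sign. Trf1f/f cells had 18.9, 16.1 and 16.9 CPM in +GFP and 18.8, 17.3 and 16 CPM in +Cre libraries, a difference of 0.01 (95% interval -0.31 to 0.32).

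One of the 2 RefSeq start sites of Lifr has a G-quadruplex pattern on its own strand, 89 to 65 bases upstream, in chr15:7129453-7129537. The stretch is shown with the pattern in capitals because Lifr fell with TMPyP4. It overlaps no exon in GENCODE and is intronic to a longer Lifr transcript.
Lifr: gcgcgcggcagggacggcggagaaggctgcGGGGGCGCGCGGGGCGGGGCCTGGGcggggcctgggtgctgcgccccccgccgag
The windows of Osmr, Il6st, Stat3 and Socs3, which also fell with TMPyP4, held no such pattern, and that of Osmr held 1 AP-1 match.

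Stat3 had 97.3, 126 and 121 CPM in Rtel1f/f +GFP, 55.5, 50.7 and 55.3 CPM in +Cre and 65.5, 62.0 and 61.7 CPM in TMPyP4-treated libraries. The control libraries lay above all others, and the TMPyP4 group lay above the +Cre group without overlap. Stat3 fell by 1.09 ± 0.0865 on the log2 scale after deletion (SE, 2.13-fold, adjusted p = 1.3e-08) and by 0.86 ± 0.0861 with TMPyP4 (1.82-fold, adjusted p = 7.0e-07) by edgeR's quasi-likelihood test. The +Cre and TMPyP4 groups differed by -0.23 (95% interval -0.41 to -0.05), which did not pass (adjusted p = 0.0605, same edgeR test). RTEL1 CA libraries had 56.5, 50.2 and 57.5 CPM in +GFP and 61.0, 53.6 and 52.9 CPM in +Cre libraries. Both groups overlapped the deleted Rtel1f/f cells. Relative to RTEL1 CA +GFP, Rtel1f/f +Cre differed by -0.02 (adjusted p = 0.925) and TMPyP4 by 0.20 (adjusted p = 0.088, edgeR's test). Trf1f/f cells had the highest Stat3, with 166, 157 and 166 CPM under GFP and 165, 164 and 153 CPM under Cre, 0.51 above Rtel1f/f +GFP on the log2 scale (adjusted p = 4.4e-05, edgeR's test).

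Socs3, the feedback inhibitor of gp130, had 17.4, 23.5 and 22.3 CPM in Rtel1f/f +GFP, 7.46, 5.71 and 8.82 CPM in +Cre and 10.0, 8.05 and 9.48 CPM in TMPyP4-treated libraries. Both treated groups lay below all controls and overlapped each other. Socs3 fell by 1.53 ± 0.154 on the log2 scale after deletion (SE, 2.88-fold, adjusted p = 2.2e-07) and by 1.20 ± 0.152 with TMPyP4 (2.3-fold, adjusted p = 8.4e-06) by edgeR's quasi-likelihood test. RTEL1 CA libraries had 10.3, 8.76 and 9.87 CPM in +GFP and 9.11, 6.7 and 9.01 CPM in +Cre libraries, and these groups overlapped. Relative to RTEL1 CA +GFP, Rtel1f/f +Cre differed by -0.40 (adjusted p = 0.104) and TMPyP4 by -0.07 (adjusted p = 0.777). Trf1f/f libraries had 20.9, 20.1 and 20.9 CPM in +GFP and 20.1, 19.6 and 16.7 CPM in +Cre libraries, close to Rtel1f/f +GFP, and the difference was -0.13 (95% interval -0.45 to 0.18).

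Of the 8 genes with promoter windows, Socs3 was the one with a STAT match. It lies 154 to 146 bases before the start site in chr11:117969472-117969560, printed 5′ to 3′ on the - strand of the gene, in no exon of GENCODE and inside an intron of a longer Socs3 transcript.
Socs3: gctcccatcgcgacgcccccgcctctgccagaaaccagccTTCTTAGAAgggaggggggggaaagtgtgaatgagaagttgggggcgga
This match is the kind of element through which STAT3 is known to act on Socs3, and binding was not measured in these libraries.

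**Figure D2:**
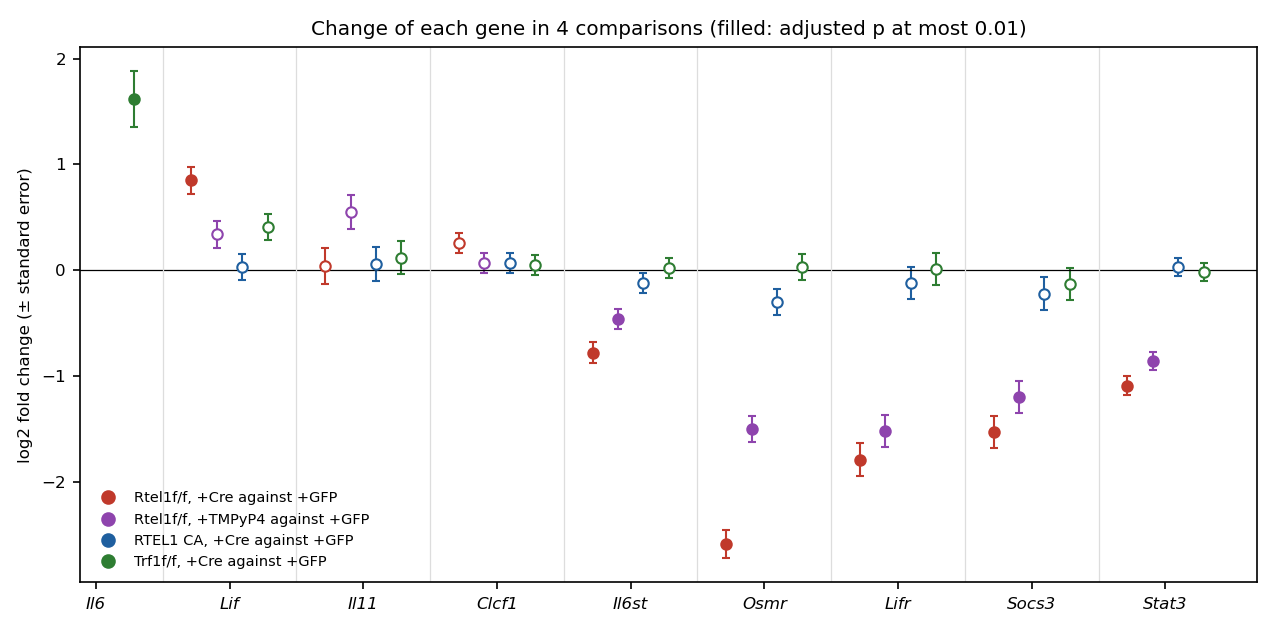
Log2 fold change of each gene, with its standard error, in 4 comparisons of 3 libraries against 3, filled for called genes. Il6 is drawn for Trf1f/f cells alone because its counts were 1 to 9 per library elsewhere. Osmr fell furthest, by 2.59 after Rtel1 deletion, and the RTEL1 CA and Trf1f/f points of Il6st, Osmr, Lifr, Socs3 and Stat3 lie between -0.30 and 0.03.

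The effect of Cre itself was then compared between lines, by testing the difference of the effects. Rtel1f/f and RTEL1 CA cells differed for 6 of the 9 genes, 1 higher and 5 lower in effect, against 12.8% and 12.3% of all genes tested. The difference was 0.82 ± 0.178 for Lif, -2.29 ± 0.179 for Osmr, -1.67 ± 0.216 for Lifr, -1.30 ± 0.216 for Socs3, -1.12 ± 0.122 for Stat3 and -0.66 ± 0.137 for Il6st, on the log2 scale. Rtel1f/f and Trf1f/f cells differed for the 5 genes that fell and for 0 in the other direction, against 14.5% and 15.8% of all genes, and the largest difference was again that of Osmr, -2.62 ± 0.178. Each of these differences contains the Rtel1f/f +GFP libraries. In RTEL1 CA cells alone, Cre gave 0 calls among the 9 genes by edgeR and 0 by DESeq2, with 1, Osmr, at an unadjusted p under 0.05. The 95% intervals there were -0.33 to 0.08 for Il6st, -0.44 to 0.20 for Lifr, -0.54 to 0.10 for Socs3 and -0.15 to 0.21 for Stat3.

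Deletion and TMPyP4 compared directly in Rtel1f/f cells differed for Lif, which was higher after deletion, and for Osmr, which was lower, or 1 gene each way against 6.13% and 9.09% of all genes. The call of Lif was lost whichever of the 6 libraries was left out. With the replicate number as a block, which pairs these libraries, Il6st was also called lower (adjusted p = 4.2e-04, edgeR). That fit called 8.43% of all genes higher and 12.2% lower. Between the untreated lines, Trf1f/f +GFP had higher Il6, Lif, Il11 and Stat3 and lower Il6st, Lifr and Clcf1 than Rtel1f/f +GFP, or 4 genes up and 3 down against 30.3% and 24.5% of all genes. Il6 passed the filter on low counts through the Trf1f/f libraries, so its place among the 4 is tied to that filter. Osmr and Socs3 were the genes not called between these lines, with differences of -0.09 (95% interval -0.35 to 0.17) and -0.03 (-0.34 to 0.28).

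**Figure D3:**
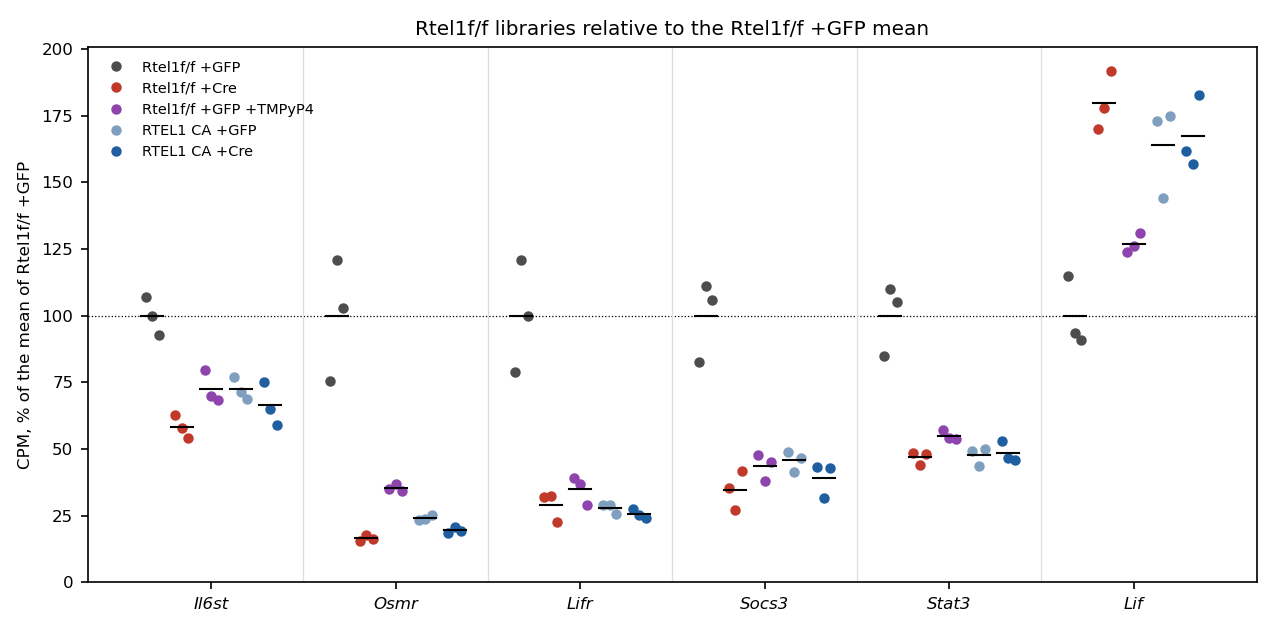
CPM of Il6st, Osmr, Lifr, Socs3, Stat3 and Lif in the 15 libraries of Rtel1f/f origin, as a percentage of the mean of Rtel1f/f +GFP (dotted line, 100%), with 1 point per library and a bar at the mean of each group. RTEL1 CA +GFP means lie at 72.4% for Il6st, 24.1% for Osmr, 27.9% for Lifr, 45.8% for Socs3, 47.8% for Stat3 and 164% for Lif, beside 58.3%, 16.6%, 29.0%, 34.8%, 47.0% and 180% for Rtel1f/f +Cre.

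For Il6st, Osmr, Lifr, Socs3 and Stat3, Rtel1f/f +GFP was the highest of the groups of Rtel1f/f origin, and the order of the groups below it differed between genes. For Lifr and Socs3, TMPyP4, Rtel1f/f +Cre, RTEL1 CA +GFP and RTEL1 CA +Cre overlapped their neighbours in level, and Rtel1f/f +GFP lay apart above them. Osmr was the gene for which these 4 groups were all apart, falling from TMPyP4 through RTEL1 CA +GFP and RTEL1 CA +Cre to Rtel1f/f +Cre. Lif had the reverse arrangement, with Rtel1f/f +GFP lowest and TMPyP4 next, apart from it. Summed over 9 fibroblast markers, levels in these groups were also highest in Rtel1f/f +GFP, at 13100 to 14000 CPM. The sums were 4820 to 7110 in +Cre, 6610 to 9590 with TMPyP4, 5680 to 8460 in RTEL1 CA +GFP and 4900 to 7320 in RTEL1 CA +Cre libraries. Collagen weighs heavily in them, with Col1a2 at a mean of 5290 CPM in Rtel1f/f +GFP. In Trf1f/f cells the sums were higher, 14500 to 20800 with GFP and 15300 to 18500 with Cre. In Trf1f/f +GFP, Il6st and Lifr were at 30.4% and 39.6% of Rtel1f/f +GFP, and Osmr, Socs3 and Stat3 at 93.8%, 97.8% and 142%. After deletion 5 of the 9 markers fell and 3 rose, with TMPyP4 5 fell and 0 rose, against 21% lower and 22.0% higher, and 13.4% lower and 16.6% higher, of all genes. Thy1 had at most 3 counts in every Rtel1f/f +GFP library. In bulk RNA, fewer cells of a type and less RNA per cell cannot be told apart, and the part of these markers in the results was not tested.

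Other genes of the pathway were read from lists chosen with results of these data known. Their shares can be read against those of all tested genes, 22.0% higher and 21% lower after Rtel1 deletion, 16.6% and 13.4% with TMPyP4, and 22.6% and 22.1% for RTEL1 CA +GFP against Rtel1f/f +GFP. With RTEL1 CA +GFP as the control, all genes gave 3.8% higher and 3.95% lower after deletion and 9.94% and 7.07% with TMPyP4. The lists were set against this control after the data had been seen, in the fit without a replicate block.

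Of 13 further ligands and receptors, 7 were measurable, and after Rtel1 deletion 1 rose and 4 fell, 14.3% and 57.1% (median log2 change -0.46, against -0.0341 over all genes). The IL-11 receptor gene Il11ra1 had 27.3, 33.7 and 32.6 CPM in Rtel1f/f +GFP and 15.5, 7.87 and 16.6 CPM in +Cre libraries, with no overlap, and fell by 1.23 ± 0.231 on the log2 scale (adjusted p = 2.4e-04, edgeR's quasi-likelihood test). The IL-6 receptor gene Il6ra fell by 0.46, while the ligand gene Cntf rose by 0.51. With TMPyP4, 4 fell (57.1%) and 0 rose (median -0.801), among them Il11ra1 (-1.08) and Il6ra (-0.80). In RTEL1 CA +GFP against Rtel1f/f +GFP, 4 also fell and 0 rose, with Il11ra1 at -1.46. Against RTEL1 CA +GFP, 0 of the 7 fell in either contrast by edgeR (0 and 1 at an unadjusted p under 0.05), 1 rose in each, and Il11ra1 differed by 0.23 after deletion and 0.38 with TMPyP4 (adjusted p = 0.633 and 0.251, edgeR's test). Osm, the ligand of the oncostatin M receptor, was among the 6 genes of this list that failed the filter.

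Among 13 kinases and signal transducers, 2 rose and 5 fell after deletion, 15.4% and 38.5% (median -0.179), 2 rose and 4 fell with TMPyP4, 15.4% and 30.8% (median 0.0594), and 1 rose and 7 fell in RTEL1 CA +GFP against Rtel1f/f +GFP. Stat5a, a related transcription factor, fell by 1.77 ± 0.208 after deletion and by 1.34 ± 0.205 with TMPyP4 (adjusted p = 1.5e-06 and 5.5e-05, edgeR's test). It was also lower in RTEL1 CA +GFP (log2 difference -1.86), whose mean of 9.7 CPM lay beside 10.3 in Rtel1f/f +Cre and 14 with TMPyP4. Against that control Stat5a differed by 0.09 after deletion and 0.52 with TMPyP4 (adjusted p = 0.873 and 0.0715, edgeR's test), and 0 of the 13 genes fell in either contrast (2 and 0 at an unadjusted p under 0.05), while 1 rose after deletion and 3 with TMPyP4. The adaptor gene Gab1 fell by 1.07 after Rtel1 deletion, whereas Grb2 and the phosphatase gene Ptpn11 rose by 0.32 and 0.33. Set against RTEL1 CA +GFP, these differences were -0.32, 0.12 and 0.09, and none passed.

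Of 15 negative regulators, 4 rose and 4 fell after deletion, 26.7% each (median -0.0849), and 3 rose and 2 fell with TMPyP4, 20% and 13.3% (median -0.125), shares near those of all genes. Under the other control 0 were called after deletion by edgeR (4 at an unadjusted p under 0.05), and 2 rose and 1 fell with TMPyP4. Ptpn2, a phosphatase that acts on Janus kinases and STATs, rose by 0.66 ± 0.0957 after deletion and 0.57 ± 0.0957 with TMPyP4. Its levels were 58.3, 55.4 and 55.6 CPM in Rtel1f/f +GFP, 81.8, 99.5 and 86.7 CPM in +Cre and 79.7, 92.9 and 86.4 CPM in RTEL1 CA +GFP libraries. Socs6 and Socs4 rose in both contrasts by 0.38 to 0.60, the opposite direction to Socs3, and were also higher in RTEL1 CA +GFP than in Rtel1f/f +GFP by 0.62 and 0.47. Against RTEL1 CA +GFP, Socs6 differed by -0.02 and -0.05 and Socs4 by 0.00 and -0.09 after deletion and with TMPyP4, and neither passed. Pias3, an inhibitor of STAT3, fell by 0.61 after deletion and 0.25 with TMPyP4. Cish fell after deletion (-0.86) and Socs1 with TMPyP4 (-1.04), while against RTEL1 CA +GFP these differences were 0.35 and -0.13 and those of Pias3 -0.26 and 0.09, without a call.

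Of 26 STAT3 target genes 21 passed the filter. After deletion 3 rose and 11 fell, 14.3% and 52.4% (median -0.837). With TMPyP4, 3 rose and 7 fell, 14.3% and 33.3% (median -0.364, against -0.0101 over all genes). In RTEL1 CA +GFP against Rtel1f/f +GFP, 3 rose and 11 fell (median -0.775). The 21 include 1 gene whose difference from RTEL1 CA +GFP was 0.00 (SE 0) for Rtel1f/f +Cre and for TMPyP4, and which could not be called there. Relative to RTEL1 CA +GFP, 2 rose and 0 fell after deletion by edgeR (2 fell at an unadjusted p under 0.05, median -0.0104), and 5 rose and 2 fell with TMPyP4 (median 0.0525). Cebpd, a transcription factor of the acute-phase response, had 2.96, 5.59 and 5.61 CPM in Rtel1f/f +GFP and 1.19, 0.496 and 0.955 CPM in +Cre libraries, and fell by 2.42 ± 0.411 (adjusted p = 9.1e-05, edgeR's test). The early-response gene Fos fell by 1.80 ± 0.248 and the IkB-family gene Bcl3 by 1.62 ± 0.292. RTEL1 CA +GFP cells differed from Rtel1f/f +GFP by -1.74 for Cebpd, -1.34 for Fos and -1.69 for Bcl3. Against RTEL1 CA +GFP, the differences after deletion were -0.68, -0.46 and 0.07 (adjusted p = 0.389, 0.279 and 0.935, edgeR's test). The targets that rose after deletion were Myc (0.81), Trib1 (0.61) and Vegfa (0.53), which gave -0.01, -0.28 and 0.58 with the other control, Vegfa alone being called there (adjusted p = 1.2e-04, edgeR's test). Vegfa, the main endothelial growth factor, also rose by 0.92 ± 0.0869 with TMPyP4 (adjusted p = 4.1e-07), to 137, 156 and 154 CPM from 81.6, 78.0 and 76.9 CPM, and in RTEL1 CA +GFP had 78.2, 68.4 and 81.1 CPM, overlapping Rtel1f/f +GFP. In RTEL1 CA cells Cre changed 0 of the 21 by edgeR, against 1.09% of all genes (2 at an unadjusted p under 0.05), and in Trf1f/f cells it raised 1, against 2.65% of all genes, Irf1, from 68.6, 79.5 and 80.1 to 126, 134 and 107 CPM (0.69 ± 0.0941).

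Of 12 NF-kB feedback genes, which NF-kB itself induces and whose pathway drives Il6 in many cells, 2 rose and 3 fell after deletion, 16.7% and 25% (median -0.308), 1 rose and 3 fell with TMPyP4, 8.33% and 25% (median -0.455), and 1 rose in Trf1f/f cells with Cre (median 0.165), where 2.65% of all genes rose. In the contrasts with RTEL1 CA +GFP, 0 were called after deletion by edgeR (5 at an unadjusted p under 0.05), and 1, Tnfaip3, rose with TMPyP4 (0.38). The one that rose in Trf1f/f cells was Tnfaip3, which encodes the NF-kB inhibitor A20, from 11.2, 11.5 and 10.8 to 16.8, 18.2 and 21.4 CPM (0.75 ± 0.0874, adjusted p = 1.5e-05, edgeR's test). Tnfaip3 also rose after Rtel1 deletion (0.38) and with TMPyP4 (0.50). Nfkbie, an IkB gene, fell by 0.97 and 1.09 in these contrasts and was lower in RTEL1 CA +GFP than in Rtel1f/f +GFP (log2 difference -1.33), against which it gave 0.36 and 0.24, without a call.

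**Figure D4:**
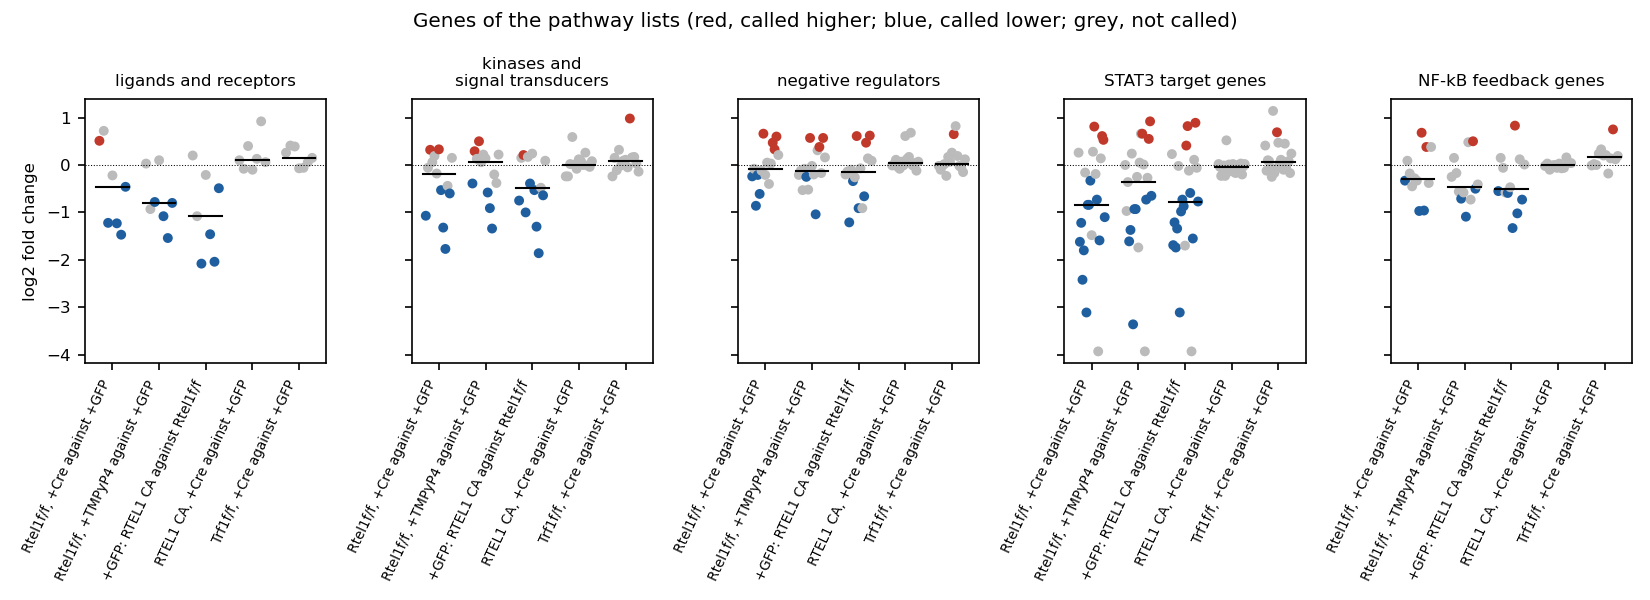
Log2 fold changes in 5 comparisons of the genes of 5 pathway lists that passed the filter, with 1 point per gene, coloured where called, and a bar at the list's median. In the STAT3 target list the medians are -0.837 after Rtel1 deletion, -0.364 with TMPyP4 and -0.775 between the control groups, and lie near 0 for Cre in RTEL1 CA and Trf1f/f cells.

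The genes whose levels were most like each of the 9 were taken by Pearson's r of log2 CPM over the 21 libraries, among 10239 genes whose mean reached 5 CPM. The libraries of a group share line and treatment, so that r mostly describes differences between groups. Il6 was closest to Phlda3 (r = 0.977), a target of p53, then to Cpped1 (0.974) and Zfp365 (0.970). With 1 to 9 counts of Il6 in each library of Rtel1f/f origin, these r rest mainly on the Trf1f/f libraries. Lif was closest to Dyrk3 (0.893), Tm4sf1 (0.884) and Cd44 (0.883), and Il11 to Nit1 (0.899). Clcf1 was closest to 1810032O08Rik and Hagh (both 0.969). Among the receptor chains, Il6st was closest to N4bp2 (0.984), Osmr to Hmcn1 and Cped1 (both 0.988) and Lifr to Fam134c (0.957). Stat3 was closest to Synpo (0.992), Lgmn and Lama4 (both 0.991), and Socs3 to Pdk2 and Ctsa (both 0.977). Hmcn1 and Lama4 encode proteins of the extracellular matrix.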

How the data were processed

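RNA of 21 mouse embryonic fibroblast libraries was sequenced, in 7 groups of 3 taken from the labels. Per the labels, the authors used cutadapt 1.9.1 for trimming, STAR 2.5.2a for alignment to mm10 (GRCm38) and RSEM 1.3.0 for quantification, and deposited its expected count per gene with no normalization. The authors also deposited RSEM's TPM values, used here only to compare levels between genes. The submitters' notes also name DESeq2 1.28.0.

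Expected counts were rounded to whole numbers. In edgeR 4.0.16 (R 4.3.3), low genes were removed with filterByExpr given the groups, libraries were scaled by TMM, and a robust quasi-likelihood model with a coefficient for each of the 7 groups was fitted to the 21 libraries. Tests were two-sided, and Benjamini-Hochberg adjusted p-values were held to 0.01. Log2 CPM used a prior count of 2. Il6 ratios have exact 95% intervals of summed counts, which cover counting error only, and other 95% intervals come from the edgeR fit. Results were recomputed with DESeq2 1.42.0, with size factors from DESeq2, with other filters on low counts, with a fit of only the groups compared, with a replicate block, with RTEL1 CA +GFP as control (for the lists, chosen after seeing the data), and without each library. Promoters came from RefSeq (GRCm38.p6), and exons at the printed stretches from GENCODE.

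Replicate numbers were taken to pair libraries where all 3 correlations of same-numbered deviations from the group means, over 11840 genes, exceeded 0.1. They were 0.86, 0.84 and 0.42 in RTEL1 CA cells (+Cre and +GFP) and 0.72, 0.76 and 0.41 for Rtel1f/f +Cre and TMPyP4. The contrasts of RTEL1 CA +GFP with Rtel1f/f +Cre and with TMPyP4 were not checked for pairing and had no replicate block.

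Results of some list genes are not reported here. The 9 genes and the lists were chosen with earlier results of these data known. The rule for named genes took all 9, the targeted genes and, per list and direction, up to 3 called genes of largest change whose mean reached 1 CPM, and the 3 genes most like each of the 9.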

Additional observations from a re-analysis of the deposited data

Results flagged for a closer look

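The effect of Cre on 6 of the 9 genes differed between lines by a test of the difference itself. Between Rtel1f/f and RTEL1 CA cells the log2 differences in the effect of Cre were 0.82 for Lif (adjusted p = 0.00149), -0.66 for Il6st (0.00114), -2.29 for Osmr (1.6e-07), -1.67 for Lifr (1.5e-05), -1.30 for Socs3 (1.5e-04) and -1.12 for Stat3 (2.6e-06), all by the quasi-likelihood test of edgeR. Between Rtel1f/f and Trf1f/f cells they were -0.80 for Il6st (adjusted p = 1.6e-04), -2.62 for Osmr (6.3e-09), -1.79 for Lifr (4.6e-06), -1.39 for Socs3 (5.5e-05) and -1.07 for Stat3 (2.4e-06) by the same edgeR test. All of them use the Rtel1f/f +GFP libraries, which stood apart, and the part of those libraries in the differences cannot be told apart from the effect of deletion.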

How the results depend on the processing

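Over 1011 recomputed log2 changes of the 9 genes, 934 kept their direction and side of the threshold, 22 kept their direction but lost a call, 7 kept it and gained one, and 48 changed sign, 4 of them also losing a call. The cause was not tested.

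With RTEL1 CA +GFP as the control, 1 of the 9 genes and 1064 genes in all were called after Rtel1 deletion, and 1 of the 9 and 2333 in all with TMPyP4. Signs then turned after deletion for Il11 (-0.16), Clcf1 (-0.05) and Lifr (0.05), and with TMPyP4 for Lif (-0.37), Clcf1 (-0.23), Il6st (0.01), Osmr (0.55), Lifr (0.32) and Stat3 (0.20). For Cre in RTEL1 CA cells DESeq2 called 337 genes and a fit of only those groups 0, beside 150 in the report's fit. Such a fit called 933 genes between deletion and TMPyP4 (2088 in the report's fit) and 2195 for the difference in the effect of Cre between Rtel1f/f and RTEL1 CA cells (3450). Near-zero differences turned sign for Lifr in Trf1f/f cells with DESeq2 (-1.1e-04), its size factors in edgeR (-1.5e-04) or no filter (-0.01), and for Il11 in the difference between Rtel1f/f and RTEL1 CA cells (0.01 under each of these). In CPM in place of TPM the ratio of Lif to Clcf1 in Rtel1f/f +GFP cells was 0.805 (0.352 in TPM), since CPM takes no account of length.

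Leaving out single libraries gave 2466 to 4110 genes called with TMPyP4 (the lowest without Rtel1f/f +GFP replicate 2), 52 to 149 for Cre in RTEL1 CA cells (the lowest without RTEL1 CA +Cre replicate 3), 282 to 377 for Cre in Trf1f/f cells, 1 to 2 of the 9 genes there, and 1 in every such fit between deletion and TMPyP4. Log2 changes that crossed 0 ranged, after Rtel1 deletion, from -0.06 to 0.21 for Il11. For Cre in RTEL1 CA cells they ranged from -0.06 to 0.08 for Lif, -0.08 to 0.13 for Il11, -0.01 to 0.15 for Clcf1 and -0.04 to 0.06 for Stat3. For Cre in Trf1f/f cells they ranged from -0.05 to 0.08 for Il6st, -0.04 to 0.13 for Osmr, -0.06 to 0.07 for Lifr and -0.06 to 0.01 for Stat3. In the differences between lines they ranged from -0.11 to 0.15 for Il11 against RTEL1 CA, and against Trf1f/f from -0.17 to 0.09 for Il11 and -0.36 to 0.35 for Il6. Between the lines with GFP they ranged from -0.27 to 0.06 for Osmr and -0.16 to 0.04 for Socs3.

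With the replicate number as a block, 7, 6, 0 and 1 of the 9 genes were called for deletion, TMPyP4, Cre in RTEL1 CA cells and Cre in Trf1f/f cells, and 3 between deletion and TMPyP4, beside 7172, 5434, 215, 642 and 2833 genes in all. The block added Clcf1 after deletion (adjusted p = 0.00998) and Il11 with TMPyP4 (adjusted p = 0.00658) by edgeR, in contrasts whose libraries share only a number (correlations from -0.02 to 0.13). Il6 counts of 1 to 9 limit what could be detected in cells of Rtel1f/f origin.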
